A study of Mus musculus with 6 samples.

Results

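Spinal neuropeptides were followed through 10 precursor genes, Sst, Tac1, Tac2, Penk, Pdyn, Nts, Cck, Npy, Gal and Calca, which mark neurons of the dorsal horn and of other parts of the spinal cord. Members were taken by gene name, and every probe set that the platform annotation gave to 1 of these names was kept. That gave 10 probe sets of 9 genes among the 45101 probe sets of the array. Calca was not analysed here, because the annotation used here gave it no probe set. Tac1 had 2 probe sets and each of the other 8 genes had 1.

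The series compared whole spinal cord of 3 Nogo-A KO mice with that of 3 wild type (WT) mice on 1 Affymetrix Mouse 430 2.0 array per animal. All 6 animals were untreated C57Bl/6 males aged 4 months, and the labels do not say how the Nogo-A KO allele was made or whether the genotypes were littermates. Nogo-A, the longest protein of the gene Rtn4, sits in membranes of oligodendrocytes and of certain neurons and limits the growth of axons. Values were MAS 5.0 signals, a linear intensity that the authors had scaled to a common mean per array.

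Neuropeptides are made as long precursors that are packed into dense core granules and cut there at pairs of basic residues into short peptides. The released peptides act on receptors coupled to G proteins and tune the release and effect of glutamate, GABA and glycine. In the dorsal horn they divide the small interneurons into groups. Sst, Tac1, Tac2, Nts and Cck are mainly found in excitatory interneurons, Npy, Gal and Pdyn mainly in inhibitory ones, and Penk in both, and Calca is known from sensory afferents and motor neurons.

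Promoter sequence was found in the RefSeq table of GRCm38.p6 for 9 of the 10 genes, all but Penk. The 120 bases before the start are shown for Sst, the gene with the largest change among the members, and for the tachykinin genes Tac2 and Tac1, which had changes of opposite sign. They lie at chr16:23890845-23890964 on the minus strand, chr10:127724358-127724477 on the plus strand and chr6:7554941-7555060 on the plus strand. Each is written 5′ to 3′, and capitals mark matches to the cAMP response element, which is bound by CREB, a factor that follows neuronal activity, or to the shorter site TGACG within it.
Sst: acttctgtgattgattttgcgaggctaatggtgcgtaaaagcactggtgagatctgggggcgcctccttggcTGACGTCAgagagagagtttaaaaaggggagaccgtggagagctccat
Tac2: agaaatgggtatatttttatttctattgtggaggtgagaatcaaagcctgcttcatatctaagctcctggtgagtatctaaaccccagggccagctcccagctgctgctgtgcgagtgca
Tac1: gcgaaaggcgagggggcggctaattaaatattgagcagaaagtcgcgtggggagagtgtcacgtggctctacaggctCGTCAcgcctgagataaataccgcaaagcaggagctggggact

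The full element, TGACGTCA, reads the same on both strands, and the short site TGACG was searched on both strands and lies within the full element. Over the 250 bases before the start, the full element was found in Sst alone of the 9 genes, with its first base at -48, and in 1.55% of 32851 promoters in the table. The short site was found in Sst, Tac1, Nts, Cck and Calca, and in 17.8% of all promoters. In Tac1 its matches began at -43 and -197. A match of letters is a description of the window and not evidence that a factor binds there.

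The arrays differed in ways that touch these genes. The median signal was 144.4, 149.3 and 144.1 on Nogo-A KO replicates 1 to 3, against 148.2, 169.5 and 195.6 in WT. The 5th percentile was 4.57, 4.92 and 4.72 in Nogo-A KO, against 5.26, 10.5 and 20.0 in WT. Dim probe sets were thus brighter in WT, mainly on replicates 2 and 3. Summed signals of 13 skeletal muscle genes were 7707, 27726 and 7412 on Nogo-A KO arrays, against 6878, 8065 and 14876 on WT arrays, so Nogo-A KO replicate 2 and WT replicate 3 were bright in muscle genes. The probe set of Rtn4 that was lost in the knockout had signals of 78.2, 9.17 and 5.08 in Nogo-A KO cords, against 3560.2, 2790.4 and 2802 in WT cords, and the other 4 were brighter in every Nogo-A KO array than in every WT array. Of the 15 Hox genes of spinal cord with a probe set, 14 were tested, and the brighter probe set of Slc6a5, the glycine transporter of inhibitory spinal neurons, had signals of 3036 to 3424 in Nogo-A KO cords and 2975 to 3741 in WT cords.

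No neuropeptide gene passed the threshold of the comparison of Nogo-A KO with WT. A probe set was tested where it reached the median of its array on at least 2 of the 3 arrays of a genotype, which 9 of the 10 neuropeptide probe sets did, 1 for each of the 9 genes. In limma, 0 of these 9 and 1 of all 23525 tested probe sets, or 0.00425%, the lost one of Rtn4, had a Benjamini-Hochberg adjusted p under 0.05. Sst, Tac2 and Penk had the largest positive changes, each with all 3 Nogo-A KO arrays above all 3 WT arrays, and 7.85% of all tested probe sets were separated in that direction. Nts and Tac1 had the largest negative changes, with overlapping genotypes. At an unadjusted p under 0.05, 3 of 9 were higher and 0 lower in limma, against 4.31% and 3.98% of all tested probe sets, 8.29% in either direction. By the same rule 4 of 12 pan-neuronal, 3 of 9 cholinergic and motor neuron and 5 of 11 oligodendrocyte genes were higher. For inhibitory neuron genes it was 1 of 11 and for dorsal horn excitatory neuron genes 0 of 12. Of these 5 lists, only the cholinergic and motor neuron genes had any lower, 1 of 9. Among the 11676 probe sets that passed a filter at the 75th percentile, where bright genes such as Sst and Penk lie, 11.7% were separated with Nogo-A KO higher and 3.7% with it lower. The median log2 change of the 9 was 0.030, beside 0.0079 over all that were tested. Since whole cord was measured, a different number of cells of a type and a different amount of RNA per cell cannot be told apart.

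**Figure D1:**
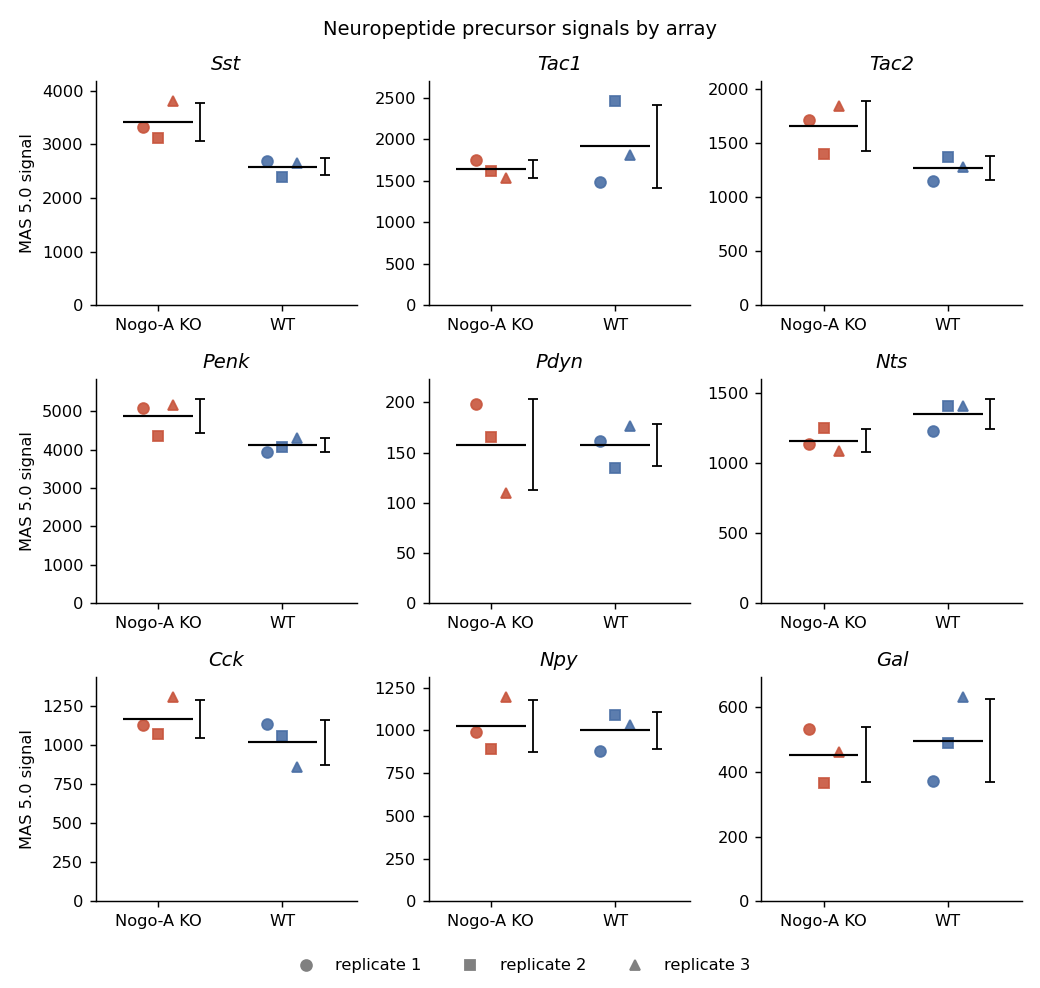
MAS 5.0 signal (vertical axes, linear, from 0) of the 9 tested neuropeptide genes, 1 panel each, in Nogo-A KO (left) and WT (right) spinal cords. Points are arrays with a shape for each replicate number, horizontal lines are means and bars are ± SD (n = 3 each), and the 3 Nogo-A KO points lie above all WT points for Sst, Tac2 and Penk.

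Sst, the precursor of somatostatin, a peptide that inhibits the cells carrying its receptors, had signals of 3319, 3112 and 3802 in Nogo-A KO cords, against 2690.0, 2401 and 2656 in WT cords. The lowest Nogo-A KO array lay above the highest WT array. Its mean was 3411 ± 354 in Nogo-A KO and 2582 ± 158 in WT (SD, n = 3 each). The log2 change of Sst was 0.40 (standard error 0.11), a fold of 1.32 with a 95% interval of 1.12 to 1.55 (limma, adjusted p = 0.591). It had rank 98 by p among the 23525 tested probe sets, and 5.53% of them had a larger log2 change. The methods' t-test, at the unadjusted p under 0.05 and fold of at least 1.2 that the series' design names, called Sst and no other neuropeptide, against 4.83% of all tested probe sets, 2.24% higher and 2.59% lower.

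Tac2 encodes neurokinin B, the ligand of the receptor NK3, which Tacr3 encodes, and its signals were 1719, 1399 and 1848 in Nogo-A KO cords, against 1152, 1371 and 1283 in WT cords. Nogo-A KO replicate 2 stood only just above WT replicate 2, and the other pairs of arrays were further apart. The means were 1655 ± 231 in Nogo-A KO and 1269 ± 110.1 in WT (SD, n = 3 each), with a log2 change of 0.38 and a standard error of 0.13 (limma, adjusted p = 0.591). The fold of 1.30 had a 95% interval of 1.06 to 1.59.

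Tac1, the precursor of substance P and neurokinin A, did not follow Tac2. Its bright probe set had signals of 1753, 1624 and 1541 in Nogo-A KO cords, against 1481, 2456 and 1807 in WT cords. All Nogo-A KO arrays lay within the range of WT, in which replicate 2 was high. The means were 1639 ± 107 in Nogo-A KO and 1915 ± 497 in WT (SD, n = 3 each), and the log2 change was -0.19 with a 95% interval of -0.55 to 0.16 (limma, adjusted p = 0.753). Without WT replicate 2 the change was 0.00098. The second probe set of Tac1 was dim, with signals of 8.23, 58.6 and 3.89 in Nogo-A KO cords, against 24.0, 58.0 and 275 in WT cords. It lay under the median of its array on every array but WT replicate 3 and was not tested. Within an array the log2 ratio of Tac2 to Tac1, set to a WT mean of 0, was 0.54, 0.35 and 0.83 in Nogo-A KO, against 0.20, -0.28 and 0.071 in WT. The ratio, which does not depend on scaling by a factor, was higher in all 3 Nogo-A KO arrays than in every WT array and is given as a description.

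Penk, the precursor of the enkephalins, opioid peptides that dampen transmission of pain, had signals of 5073, 4364 and 5161 in Nogo-A KO cords, against 3948, 4067 and 4310 in WT cords. Again replicate 2 was the lowest Nogo-A KO array, close to WT replicate 3. The means were 4866 ± 437 in Nogo-A KO and 4108 ± 184 in WT (SD, n = 3 each), with a log2 change of 0.24 and a standard error of 0.098 (limma, adjusted p = 0.594). That is a fold of 1.18 with a 95% interval of 1.02 to 1.37. Pdyn, the other opioid precursor among the members, yields dynorphins and was dim. It had signals of 199, 166 and 109.5 in Nogo-A KO cords, against 161, 135 and 176 in WT cords, and reached the median of its array on 3 of 6 arrays. Its genotypes overlapped, and its log2 change of -0.031 had a 95% interval of -0.80 to 0.74 (limma, adjusted p = 0.987). The log2 ratio of Penk to Pdyn within an array, set to a WT mean of 0, was -0.038, 0.0074 and 0.85 in Nogo-A KO, against -0.10, 0.20 and -0.10 in WT, and the genotypes overlapped.

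Nts, the precursor of neurotensin, had the most negative change, with signals of 1139.6, 1249 and 1088 in Nogo-A KO cords, against 1229, 1409 and 1410.2 in WT cords. Both genotypes met between Nogo-A KO replicate 2 and WT replicate 1, and the other 2 Nogo-A KO arrays lay below all WT arrays. The means were 1159 ± 81.9 in Nogo-A KO and 1349 ± 104 in WT (SD, n = 3 each), a log2 change of -0.22 with a standard error of 0.12 (limma, adjusted p = 0.638). Within an array, the log2 ratio of Sst to Nts, set to a WT mean of 0, was 0.60, 0.38 and 0.87 in Nogo-A KO, against 0.19, -0.17 and -0.024 in WT. This pair of genes was chosen after their values were seen. Sst to Npy, also chosen then, had ratios of 0.37, 0.43 and 0.30 in Nogo-A KO, against 0.24, -0.23 and -0.0091 in WT.

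Cck, Npy and Gal had overlapping genotypes. Cck, whose peptide opposes opioid analgesia, had signals of 1129, 1070.0 and 1303 in Nogo-A KO cords, against 1132, 1055 and 858 in WT cords, with a log2 change of 0.21 and a 95% interval of -0.10 to 0.51 (limma, adjusted p = 0.696). Npy, the precursor of neuropeptide Y, which inhibits through receptors on sensory terminals and excitatory neurons, had signals of 992, 892 and 1193 in Nogo-A KO cords, against 881, 1089 and 1034 in WT cords. Its log2 change was 0.030 with a 95% interval of -0.29 to 0.35 (limma, adjusted p = 0.968). Gal, the precursor of galanin, had signals of 534, 365 and 462 in Nogo-A KO cords, against 372, 488 and 630.2 in WT cords. The Gal change was -0.12 with a 95% interval of -0.59 to 0.36 (limma, adjusted p = 0.902). These intervals include both no change and folds of 1.2 either way, apart from Cck on its lower side.

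**Figure D2:**
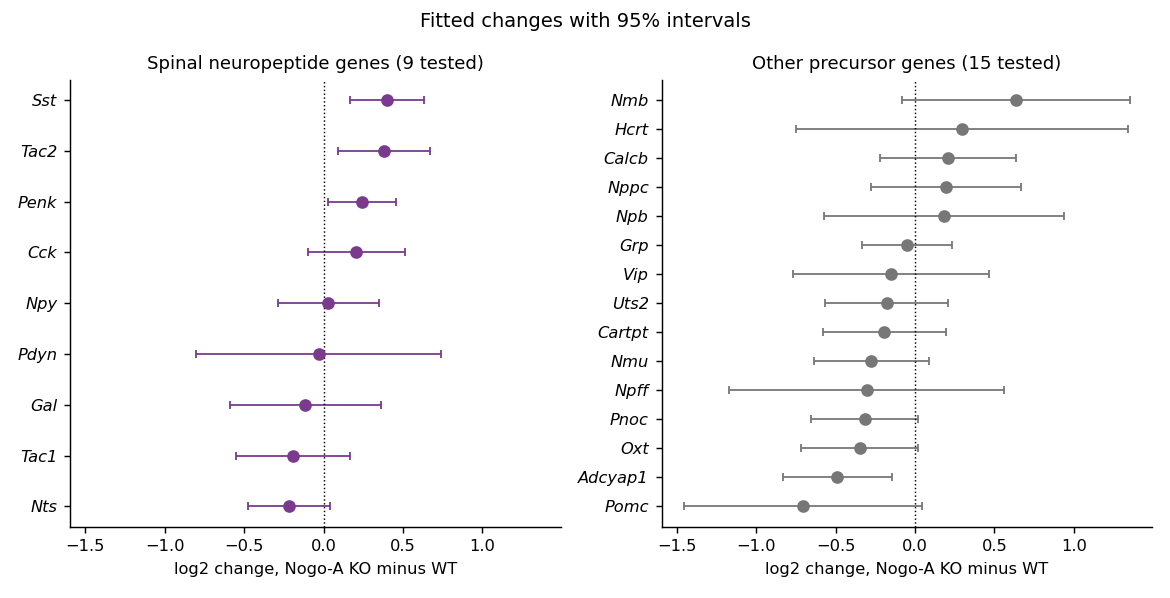
Fitted log2 change, Nogo-A KO minus WT (horizontal axes), with 95% intervals for the 9 tested spinal neuropeptide genes (left) and 15 other tested precursor genes (right). The intervals of Sst, Tac2 and Penk lie above 0 before adjustment for the number of probe sets tested, and that of Adcyap1 lies below it.

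The members differed in how closely animals of a genotype agreed. The pooled SD of log2 signal within a genotype was 0.10 for Penk, 0.11 for Nts and 0.12 for Sst, against a median of 0.22 over all tested probe sets. It was 0.27 for Tac1, 0.33 for Gal and 0.34 for Pdyn. These genes also differed in brightness. Penk lay at percentiles 96.3 to 97.3 of the arrays, Sst at 93.8 to 96.1, Tac1 at 89.3 to 93.9 and Nts at 85.6 to 89.3. Gal lay at 67.7 to 76.8 and Pdyn at 44.4 to 56.2. The part of brightness in the spread was not tested. Nogo-A KO replicate 2, the array brightest in muscle genes, had the lowest Nogo-A KO signal for Sst, Tac2, Penk, Cck, Npy and Gal. It had the highest for Nts. WT replicate 3, the other array bright in muscle genes, had the highest WT signal for Penk, Pdyn, Nts and Gal. Without these 2 arrays the log2 changes were 0.48 for Sst, 0.50 for Tac2 and 0.35 for Penk. Their adjusted p-values in limma were 0.146, 0.166 and 0.170. The changes without the same arrays were 0.22 for Gal, 0.15 for Cck, 0.15 for Npy, -0.24 for Nts and -0.21 for Tac1. Those 2 arrays were left out together after the values had been seen.

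General neuronal genes were compared next, because neuropeptides are made by neurons. Of 12 pan-neuronal genes, 0 passed in limma, 11 had a log2 change above 0 and the median change was 0.16, or 0.067 after quantile normalization and 0.38 with median scaling. Uchl1, an abundant neuronal enzyme, had a log2 change of 0.27, and Stmn2, a regulator of axonal microtubules, had 0.23 (limma, adjusted p = 0.591 and 0.594). The mean log2 signal of the 12 pan-neuronal genes, set to a WT mean of 0, was 0.12, 0.13 and 0.19 in Nogo-A KO, against 0.058, 0.042 and -0.10 in WT. All 3 Nogo-A KO arrays thus lay above all WT arrays. The means of oligodendrocyte and of astrocyte genes were separated in the same direction. Of single genes, 4 of 11 and 1 of 8 were separated with Nogo-A KO higher, against 7.85% of all tested probe sets. The median log2 change of oligodendrocyte genes was 0.23, or 0.13 after quantile normalization and 0.46 with median scaling. For astrocyte genes it was 0.11, or 0.030 and 0.33 under the same settings. Genotypes overlapped for the mean of 8 microglia genes, at -0.24, -0.032 and -0.11 in Nogo-A KO, against -0.23, 0.14 and 0.086 in WT. The mean of 11 oligodendrocyte genes was 0.19, 0.20 and 0.32 in Nogo-A KO, against -0.0099, 0.019 and -0.0093 in WT, and that of 8 astrocyte genes was 0.12, 0.088 and 0.16 in Nogo-A KO, against 0.025, -0.0026 and -0.023 in WT. When the pan-neuronal mean was taken off each array, the log2 change was 0.25 for Sst, 0.23 for Tac2 and 0.094 for Penk, and it was -0.37 for Nts and -0.34 for Tac1. Sst then stayed higher in every Nogo-A KO array, at 0.24, 0.14 and 0.37 against 0.0030, -0.15 and 0.14 in WT, by a gap of less than 0.01 between the closest arrays. Nts lay at -0.36, -0.24 and -0.50 in Nogo-A KO, below all WT values of -0.19, 0.023 and 0.17, while Tac2 and Penk overlapped. None of the 9 passed in limma on that scale, and this scaling was added after the data were seen.

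**Figure D3:**
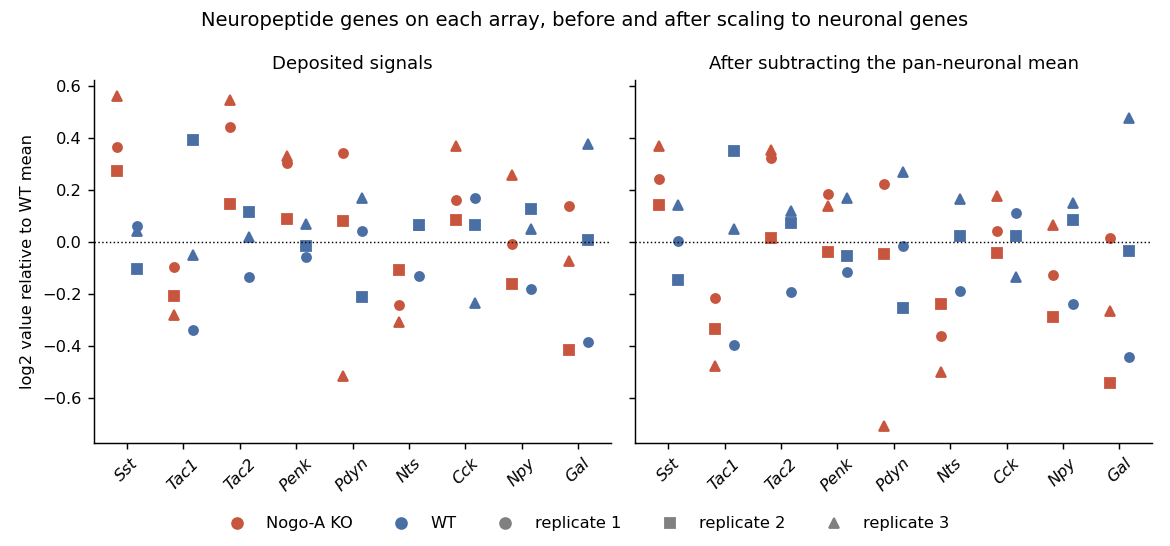
Log2 signal of each neuropeptide gene relative to its WT mean (vertical axis), as deposited (left) and after the mean of 12 pan-neuronal genes was subtracted from each array (right). Each point is an array, red for Nogo-A KO and blue for WT, and after subtraction only Sst and Nts have genotypes that do not overlap.

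Genes that identify the neurons making these peptides were measured beside them. Of 12 tested genes of dorsal horn excitatory neurons, 0 passed in limma and the median log2 change was -0.0073. Slc17a6, the glutamate transporter of these neurons, had signals of 6200, 5953 and 5705 in Nogo-A KO cords, against 6326, 6406 and 5768 in WT cords. Inhibitory neuron genes had a median of -0.044 over 11 tested members, with 0 past the threshold, and it lay on both sides of 0 across settings, among them 0.10 with each gene averaged over its tested probe sets, 0.18 with median scaling, 0.021 after quantile normalization and 0.039 without WT replicate 1. Slc32a1, which loads GABA and glycine into vesicles, had a log2 change of 0.25, and Gad2, which makes GABA, had -0.25 by the brighter of 2 probe sets and -0.12 as their mean (limma, adjusted p = 0.595 for Slc32a1 and 0.632 for the brighter Gad2 probe set), each with genotypes that did not overlap. Cholinergic and motor neuron genes had a median of 0.084 over 9 tested members, none past the threshold, and it was 0.23 without WT replicate 1, 0.24 without WT replicate 3, 0.030 without WT replicate 2 and -0.064 with scaling to pan-neuronal genes. Of 12 sensory ganglion genes with a probe set, 7 lay under the array median on all 6 arrays, Scn10a and Trpv1 among them. Their summed signal was 643 to 1241 in Nogo-A KO cords and 796 to 1359 in WT cords.

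Other precursor genes had log2 changes of both signs. Of 36 listed, 29 had a probe set, 15 were tested, 0 passed in limma and 5 had a change above 0, Nmb, Hcrt, Calcb, Nppc and Npb. The median log2 change was -0.18, or 0.041 with median scaling, where that over every tested probe set was 0.23. Of the 15, 4 had all Nogo-A KO arrays below all WT arrays, against 6.62% of all tested probe sets, and 1 had them above. Adcyap1, the precursor of PACAP, had signals of 497, 568 and 538 in Nogo-A KO cords, against 618, 839.9 and 809 in WT cords, a log2 change of -0.49 (limma, adjusted p = 0.591). Oxt, Pnoc and Uts2, the precursors of oxytocin, nociceptin and urotensin II, were the others below, with log2 changes of -0.35, -0.32 and -0.18, and Nmb, the precursor of neuromedin B, lay above at 0.64. The signals of this list summed to 6497 to 6939 in Nogo-A KO cords and 7447 to 7767 in WT cords. Of its 29 genes, 12 lay under the array median on all arrays. Dim signals as a whole were brighter in WT, mainly on replicates 2 and 3. The part of dim signals in the result was not tested. Calcb, which encodes a second form of CGRP, had overlapping genotypes with a log2 change of 0.21 (limma, adjusted p = 0.784). Pomc, a further opioid precursor, had the most negative log2 change of this list, -0.71 (limma, adjusted p = 0.610). Its genotypes overlapped, and it was dim, at percentiles 41.8 to 59.8 of the arrays.

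Of the receptors, 14 of 30 genes with a probe set were tested and 0 passed in limma, with a median log2 change of -0.028. That median lay on both sides of 0 across settings. It was 0.19 with median scaling, 0.10 with the 75th percentile filter and -0.17 with scaling to pan-neuronal genes. With each gene averaged over its tested probe sets it was -0.074. Sstr2, a receptor for somatostatin, had signals of 212, 183 and 273 in Nogo-A KO cords, against 297, 358 and 570.3 in WT cords. Its log2 change of -0.84 (limma, adjusted p = 0.591) was opposite in sign to that of its ligand. Sstr2 was rather dim, down to percentile 54.2 of an array, with a pooled SD within a genotype of 0.40. WT replicate 3, an array on which dim signals were brighter, had its highest signal. Npy5r, a receptor for neuropeptide Y, had a log2 change of -0.37 with genotypes that did not overlap, and -0.17 as the mean of its 2 probe sets. Tacr3, the receptor for the Tac2 peptide, had 0.13, and Cckbr, a receptor for cholecystokinin, had -0.21 (limma, adjusted p = 0.833 and 0.731). Ntsr2, a neurotensin receptor also made by astrocytes, had signals of 5785 to 6444 in Nogo-A KO cords and 5634 to 5962 in WT cords. Tacr1, Oprm1 and Oprd1, which encode receptors for substance P and opioid peptides, did not reach the level set for testing. Oprk1, the receptor gene for the Pdyn peptides, was tested, with a log2 change of 0.013 (limma, adjusted p = 0.992). The related gene Oprl1 had 0.16 (limma, adjusted p = 0.734), and 0.20 as the mean of its 3 probe sets. Both had overlapping genotypes.

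Genes that turn precursors into peptides also had no member past the threshold among 22 tested, with a median log2 change of 0.055. The granule protein Chga had signals of 3405, 2982 and 3424 in Nogo-A KO cords, against 2625, 2416 and 3016 in WT cords, and a log2 change of 0.29 (limma, adjusted p = 0.594). Pcsk1n, an inhibitor of the convertase that Pcsk1 encodes, had 0.45, and Pcsk1 itself had -0.67 (limma, adjusted p = 0.594 for each). Pcsk1 had signals of 227, 285 and 199 in Nogo-A KO cords, against 304, 311 and 549.9 in WT cords. It was rather dim, down to percentile 56.5 of an array, with a pooled SD within a genotype of 0.39. Its highest signal was on WT replicate 3, an array on which dim signals were brighter. The Chga and Pcsk1n genotypes overlapped, and those of Pcsk1 did not. Cpe, which trims cut precursors, had 0.073, and Scg2, a granule protein, had 0.0041. Of 12 tested peptidases that break peptides down, 0 passed in limma, and Mme, which cleaves enkephalins and substance P, had a log2 change of 0.16 (limma, adjusted p = 0.857) and -0.090 as the mean of its 2 probe sets.

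**Figure D4:**
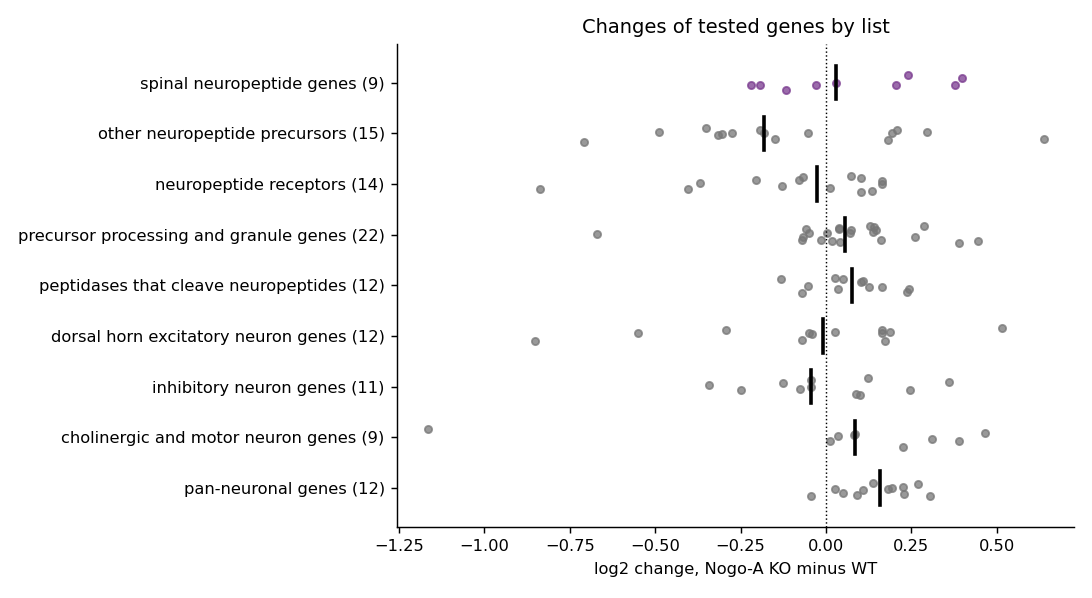
Log2 change, Nogo-A KO minus WT (horizontal axis), of each tested gene (points) in 9 gene lists (rows, number of tested genes in brackets), with black bars at list medians and vertical scatter without meaning. Medians run between -0.18 for other precursors and 0.16 for pan-neuronal genes, and the spinal neuropeptide genes have 0.030.

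The sign of several smaller changes differed between scalings of the arrays, and also with single arrays left out. Dividing each array by its median put the median change over every tested probe set at 0.23 on the log2 scale, and each neuropeptide gene moved by as much as that median did. After quantile normalization the log2 change was 0.33 for Sst, 0.35 for Tac2, 0.16 for Penk and -0.25 for Nts. Sst, Tac2, Penk and Cck had a positive change under every setting tried, with log2 changes of 0.25 to 0.62 for Sst, 0.23 to 0.60 for Tac2, 0.094 to 0.46 for Penk and 0.059 to 0.43 for Cck. The Cck change was 0.090 without WT replicate 3 and 0.12 without Nogo-A KO replicate 3. Adjusted p-values for Sst were 0.146 to 0.967 over these settings in limma and the methods' t-test.

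**Figure D5:**
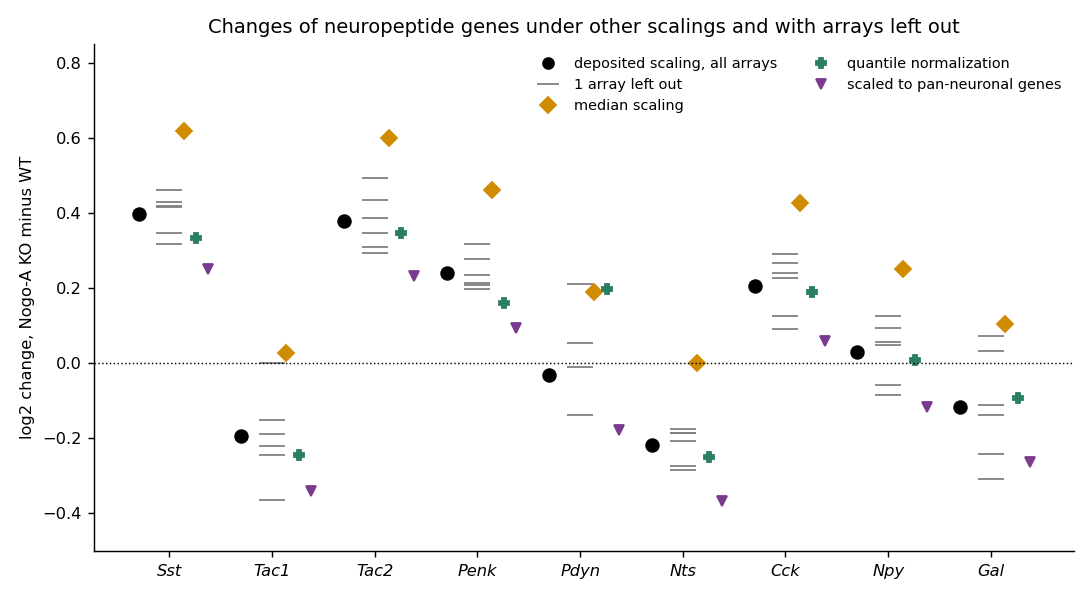
Log2 change of each neuropeptide gene, Nogo-A KO minus WT (vertical axis), with the deposited scaling (black circles), with 1 array left out (grey dashes), and with 3 other scalings (coloured symbols). All symbols of Sst, Tac2, Penk and Cck lie above 0, those of Tac1, Pdyn, Npy and Gal lie on both sides, and those of Nts lie below 0 except with median scaling (0.0017).

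Signals over the 6 arrays were also compared with those of 20443 other tested probe sets of 1 gene each. The most similar to Sst was Bcl2l1, a regulator of cell death, with a Pearson r of 0.994, and 165 probe sets had an r of at least 0.95. The most similar to Tac2 was Lin7b, a scaffold protein of synapses (r = 0.987), to Penk Ehmt2, a histone methyltransferase (r = 0.994), and to Nts Mdm2, which marks p53 for degradation (r = 0.998). For Tac1 it was Smim10l1, for Pdyn Igf2, for Cck Srsf11, for Npy Ccnd3 and for Gal Akirin1, with r from 0.984 to 0.996. With 6 arrays and this many probe sets, values of this size are a description of the arrays, which share their scaling and genotype.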

How the data were processed

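Total RNA of whole spinal cord was labelled after 1 round of in vitro transcription and hybridised to 6 arrays, per the labels' protocols. The authors made the deposited intensity values with MAS 5.0, run in GCOS 1.4 (both per the submitters' processing notes), and the mean without the lowest and highest 2% was 500.00 on every array. The later GeneSpring 7.2 steps are not in these values, and present calls were not used here. The number of arrays limits the precision.

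The 64 control probe sets were left out. Log2 of the deposited intensity was compared between 3 Nogo-A KO and 3 WT arrays in limma 3.58.1 under R 4.3.3 (lmFit, eBayes with intensity trend), with Benjamini-Hochberg adjustment over 23525 probe sets at 0.05. Tested probe sets reached the 50th percentile of their array on at least 2 of 3 arrays of a genotype, standing in for the present-call filter. The scripts were tested on simulated data, where 17% of log2 changes of 0.6 and 45.7% of changes of 1 passed the threshold. Smaller changes, such as those of the neuropeptide genes, were not simulated. The 1-factor test of the design was run as the methods' t-test. Symbols came from the platform annotation, updated by gene identifier to a RefSeq table of GRCm38.p6, which held 34741 of 34945 probe sets with 1 symbol; 932 had several and 9160 had none. A gene of a list was represented by its brightest tested probe set.

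All neuropeptide genes are named, with up to 4 genes of smallest p per other list, further genes chosen for their roles or separated groups after their values were seen, and the most similar probe set of each. Members and lists were chosen with earlier results of these data known. With 3 against 3 arrays an exact permutation p cannot go below 0.1. The animals are taken as the replicates that the titles number. Same-numbered arrays of the genotypes had correlations of -0.035, 0.074 and 0.11 between deviations from genotype means, so the numbers were not used as pairs. Alternatives were other scalings, filters, an offset of 50, no trend, a replicate block, and arrays left out.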

Additional observations from a re-analysis of the deposited data

How the results depend on the processing

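No neuropeptide gene passed the adjusted threshold in limma under any setting tried, and the methods' t-test called 1, Sst, without adjustment and 0 with it. Over all probe sets, the counts higher and lower were 527 and 609 in the methods' t-test and 0 and 0 after its adjustment, 0 and 0 without the trend, 1 and 2 without both arrays bright in muscle genes, and 0 to 1 and 0 to 8 with each array left out (1 and 8 without WT replicate 1, 1 and 2 without WT replicate 3). The lost Rtn4 probe set was not called without WT replicate 2 or Nogo-A KO replicate 2. With a replicate block the counts were 3 and 1, with 0 neuropeptide genes, and it changed no call of a neuropeptide gene. The median log2 change of the neuropeptide genes was 0.25 with median scaling, 0.16 after quantile normalization, 0.21 with the 75th percentile filter, where Pdyn and Gal were not tested, -0.12 with scaling to pan-neuronal genes (which moved the median of all tested probe sets to -0.14), 0.19 without both arrays bright in muscle genes, and -0.0091 to 0.196 with each array left out. Signs turned with median scaling for Tac1 (0.026), Pdyn (0.19), Nts (0.0017) and Gal (0.10), after quantile normalization for Pdyn (0.20), with scaling to pan-neuronal genes for Npy (-0.12), and without both arrays bright in muscle genes for Gal (0.22). With each array left out, log2 changes were -0.36 to 0.00098 for Tac1, -0.14 to 0.21 for Pdyn, -0.084 to 0.13 for Npy and -0.31 to 0.072 for Gal. Pdyn was not tested without Nogo-A KO replicate 1 or 2, or without both arrays bright in muscle genes. The cause of these shifts was not tested. Dim signals limit Pdyn and the second Tac1 probe set.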
